A study of Mus musculus with 10 samples.

Results

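Polyamine metabolism in the liver was described here through 10 genes that make, break down or control the polyamines: *Odc1*, *Amd1*, *Srm* and *Sms* for synthesis, *Sat1*, *Paox* and *Smox* for breakdown, and *Azin1*, *Oaz1* and *Oaz2* for control of ornithine decarboxylase. They were chosen by their role in the pathway, and all 10 were among the 15126 genes of the deposited table. The livers described came from 5 db/db mice, which lack a working leptin receptor and become obese and diabetic, at 10 weeks of age. These AAV8-Control mice had been given by tail vein, 5 weeks before, an adeno-associated virus of serotype 8 encoding eGFP, so the values are those of obese, infected livers, and no lean or uninfected mice were analysed here. The labels' protocols instead name cultured hepatocytes given an adenovirus. The AAV8 label, the series' design and the study describe whole livers and the AAV8 vector, which is the reading followed here, and the vector could not be checked in these values. The libraries held transcripts of several liver cell types, as described below. Levels are given in CPM, the number of reads on a gene scaled to a common library total, and no test between groups was made.

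Ornithine, a product of the urea cycle, is the substrate from which ornithine decarboxylase makes putrescine, the first polyamine. Spermidine and spermine are then built by adding aminopropyl groups, which come from S-adenosylmethionine after its decarboxylation, and they are needed for translation, growth and the hypusine modification of the translation factor eIF5A. The pathway is known for control after transcription: polyamines stimulate a ribosomal frameshift in antizyme mRNA, antizyme sends ornithine decarboxylase to the proteasome, and antizyme inhibitor binds antizyme in its place. Levels of mRNA are thus only 1 layer of this control, and enzyme amounts, enzyme activities and polyamines were not analysed here.

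The sequence of the antizyme frameshift is shown because it is the feature by which these mRNAs sense polyamines. In the GENCODE annotation of GRCm38 the coding exons of both antizyme genes leave out 1 base, at position 80828295 of chromosome 10 in *Oaz1* and at position 65686272 of chromosome 9 in *Oaz2*. The 30 bases around that base were read from transcripts of the same genes that run through it, 5′ to 3′ on the plus strand, at chr10:80828280-80828309 for *Oaz1* and at chr9:65686257-65686286 for *Oaz2*. Capitals mark the TCCTGA motif, which holds the last codon read before the shift and the TGA stop codon that the shift avoids.
Oaz1: cctcggtggtgcTCCTGAtgtccctcaccc
Oaz2: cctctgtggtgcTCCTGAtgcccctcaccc
A gene count does not tell shifted from unshifted translation, so the *Oaz1* and *Oaz2* values below are amounts of mRNA alone.

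The coding sequence of *Amd1* is shown because it bears on how well that gene could be counted. *Amd2*, a second gene for S-adenosylmethionine decarboxylase, has a coding sequence of the same 1002 bases with a single difference, G796C, counted from the first base of the start codon with the *Amd1* base first, so that 99.9% of bases are identical. The start of the coding sequence, bases 1 to 50, is the same in both genes, and bases 772 to 821 differ at the capital letter.
Amd1 and Amd2, bases 1 to 50: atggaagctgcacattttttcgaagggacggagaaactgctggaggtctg
Amd1, bases 772 to 821: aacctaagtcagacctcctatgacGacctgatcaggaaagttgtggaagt
Amd2, bases 772 to 821: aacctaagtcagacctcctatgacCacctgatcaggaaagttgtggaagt
Reads were 50 bases long and only those that aligned to a single place were counted. Of the 50-base windows of the longest coding transcript of *Amd1*, 87.6% also occurred in a transcript of another annotated gene, chiefly *Amd2* and the *Amd* pseudogenes. These were 2765 of 3155 windows, more than the 1002 coding bases can hold, so sharing extended outside the coding sequence. The same share was 52.2% for *Oaz1*, 42.2% for *Odc1*, 28.9% for *Paox* and 28.7% for *Sms*, and it was 12.0% or less for *Oaz2*, *Sat1*, *Azin1*, *Srm* and *Smox*. The level of the first 5 genes is uncertain for that reason, since reads from shared windows were dropped or could fall to a copy. The livers of a given gene can be compared with each other, as the same windows could be counted in every library.

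Library totals ran from 19499795 to 35498596 reads, so that a single read was worth 0.0282 to 0.0513 CPM. The summed CPM of 8 hepatocyte markers was between 94010 and 128532 in every liver, and that of 8 Kupffer cell markers between 134 and 270, so the liver label held and macrophages were present. The sinusoidal endothelial markers summed to 116 to 245 CPM, the stellate cell markers to 261 to 352 CPM and the cholangiocyte markers to 33.5 to 53.9 CPM. Erythroid markers summed to 262 to 327 CPM, adipocyte markers to 1.24 to 11.6 CPM, pancreatic acinar markers to 3.39 to 4.90 CPM and markers of proliferating cells to 7.38 to 8.31 CPM. Markers of lymphocytes and of neutrophils each summed to 3.03 CPM or less, and no marker present in the table was at 0 in all libraries. In such bulk livers more cells of a type and more RNA per cell cannot be told apart.

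All 10 polyamine genes had reads in each of the 5 livers, from 34 reads for *Sms* to 2800 for *Azin1*. On CPM the mRNA of ornithine decarboxylase and of the acetyltransferase *Sat1* varied little from liver to liver, whereas the antizyme gene *Oaz1* spread widely. The decarboxylase gene *Amd1* also spread widely, but it was counted from only 55 to 117 reads per library. Per kilobase of all annotated exons, *Srm*, *Oaz1* and *Azin1* had the highest levels, an order that changed with the length used, and *Sms* had the lowest level on each length scale tried.

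**Figure D1:**
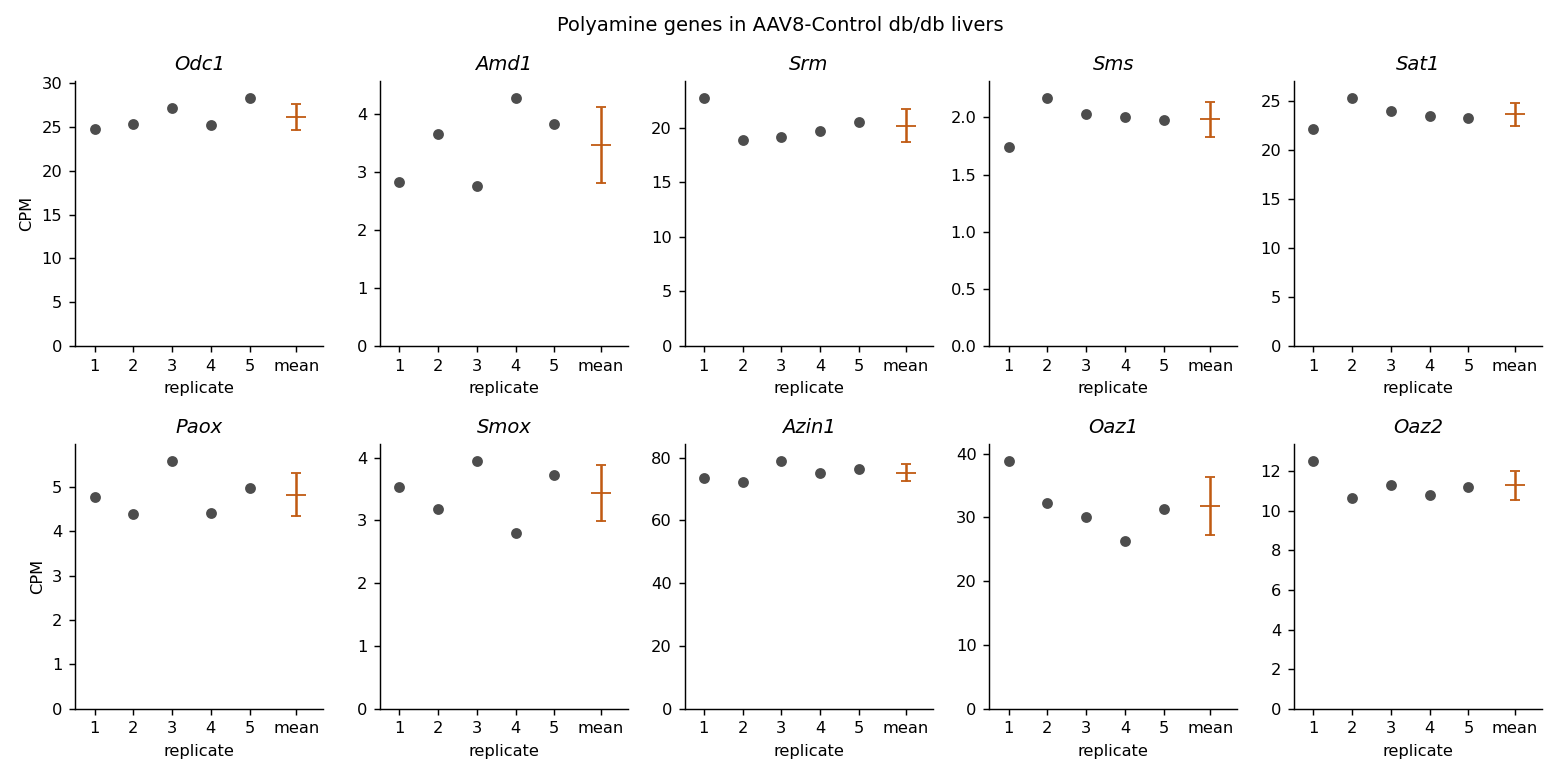
CPM (vertical axes, from 0) of each polyamine gene in AAV8-Control replicates 1 to 5 (grey points), with the mean and SD of the 5 livers in orange. The points of *Azin1* lie close together (72.1 to 78.9 CPM), while those of *Oaz1* run from 26.3 to 38.8 CPM.

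Of the synthesis genes, *Odc1* (chr12:17544794-17551505, plus strand) encodes ornithine decarboxylase, the rate-limiting enzyme that turns ornithine into putrescine. It was at 24.8, 25.3, 27.2, 25.2 and 28.3 CPM in replicates 1 to 5. The mean was 26.1 ± 1.51 CPM (SD, n = 5), and the highest liver held 1.14 times the level of the lowest. It was counted from 483 to 965 reads per library.

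*Amd1* (chr10:40287458-40302186, minus strand) encodes S-adenosylmethionine decarboxylase, which makes the aminopropyl donor for both later steps. It was at 2.82, 3.66, 2.76, 4.26 and 3.82 CPM in replicates 1 to 5, a mean of 3.46 ± 0.654 CPM (SD, n = 5). The livers fell into 2 below 3 CPM and 3 above 3.5 CPM, and the highest held 1.54 times the level of the lowest. These values rest on 55 to 117 reads per library. *Amd2* was listed at 0 in 4 of the 5 libraries and held 4 reads in replicate 4.

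*Srm* (chr4:148591503-148594993, plus strand) encodes spermidine synthase, which adds the first aminopropyl group to putrescine. It was at 22.7, 18.9, 19.2, 19.6 and 20.5 CPM in replicates 1 to 5, a mean of 20.2 ± 1.53 CPM (SD, n = 5). Replicate 1 was the highest, and the other 4 lay within 2 CPM of each other.

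*Sms* (chrX:157443855-157492287, minus strand) encodes spermine synthase, which turns spermidine into spermine. It was at 1.74, 2.17, 2.03, 2.005 and 1.98 CPM in replicates 1 to 5, a mean of 1.98 ± 0.153 CPM (SD, n = 5). Replicate 1, the highest liver for *Srm*, was the lowest for *Sms*. Only 34 to 72 reads per library were counted, the fewest of the 10 genes.

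Of the breakdown genes, *Sat1* (chrX:155213132-155216449, minus strand) encodes spermidine/spermine acetyltransferase, the inducible enzyme that marks polyamines for oxidation or export. It was at 22.2, 25.3, 24.0, 23.5 and 23.2 CPM in replicates 1 to 5, a mean of 23.6 ± 1.14 CPM (SD, n = 5). The highest liver held 1.14 times the level of the lowest, the same factor as for *Odc1*. *Sat2*, a paralog of *Sat1*, had 9.51 ± 0.547 CPM (SD, n = 5), and its livers lay at 9.03 to 10.4 CPM. Its variation was 5.75%, and 3.48% without replicate 4, its highest liver.

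The oxidases had fewer reads than the acetyltransferase. *Paox* (chr7:140115799-140137224, plus strand) encodes the peroxisomal oxidase that acts on acetylated polyamines, and it was at 4.77, 4.38, 5.58, 4.41 and 4.98 CPM in replicates 1 to 5, a mean of 4.82 ± 0.490 CPM (SD, n = 5). *Smox* (chr2:131491496-131525922, plus strand) encodes spermine oxidase, which returns spermine to spermidine and releases hydrogen peroxide. It was at 3.54, 3.18, 3.94, 2.81 and 3.72 CPM in replicates 1 to 5, a mean of 3.44 ± 0.451 CPM (SD, n = 5). Replicate 3 was the highest liver for both oxidases.

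Of the genes that control ornithine decarboxylase, *Azin1* (chr15:38487427-38519266, minus strand) encodes antizyme inhibitor, which resembles the decarboxylase and binds antizyme without making putrescine. It was at 73.5, 72.1, 78.9, 75.1 and 76.5 CPM in replicates 1 to 5, a mean of 75.2 ± 2.62 CPM (SD, n = 5). The highest liver held 1.09 times the level of the lowest, the narrowest range of the 10 genes. *Azin2*, a second antizyme inhibitor gene, was listed at 0.661 CPM on average and held 8 to 28 reads.

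*Oaz1* (chr10:80826656-80829290, plus strand), the main antizyme gene, was at 38.8, 32.3, 30.0, 26.3 and 31.3 CPM in replicates 1 to 5, a mean of 31.7 ± 4.56 CPM (SD, n = 5). Replicate 1 was the highest and replicate 4 the lowest, and the highest liver held 1.48 times the level of the lowest. *Oaz2* (chr9:65668001-65690300, plus strand), a second antizyme gene, was at 12.5, 10.6, 11.3, 10.8 and 11.2 CPM in replicates 1 to 5, a mean of 11.3 ± 0.737 CPM (SD, n = 5). Its livers lay closer together than those of *Oaz1*, and replicate 1 was again the highest. *Oaz3*, known from testis, held 3 to 5 reads per library.

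Levels were set in order across the 10 genes as mean CPM per kilobase of all annotated exons over the 5 livers. *Srm* (12.6), *Oaz1* (12.4) and *Azin1* (12.03) formed the highest set, and their ranges over livers overlapped. *Sat1* (8.52) and *Odc1* (7.68) followed, also with overlapping ranges, and then *Oaz2* (3.78), which overlapped with no neighbour. *Paox* (0.983), *Amd1* (0.978) and *Smox* (0.883) overlapped with each other, and *Sms* (0.330) lay below all of them, at 0.290 to 0.361 over the livers. On this scale *Srm*, *Oaz1* and *Azin1* thus had more mRNA per length than *Odc1*, and neighbours within a set could change places when a liver was left out.

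The order depended on the length used. Counted per 1000 windows of the longest coding transcript that no other gene shares, a measure added after the data were seen, *Oaz1* stood at 64.9, *Sat1* at 22.9, *Odc1* at 20.95, *Azin1* at 16.7, *Srm* at 16.04, *Amd1* at 8.88, *Oaz2* at 7.15, *Smox* at 1.53, *Paox* at 1.47 and *Sms* at 0.759. *Amd1* moved above *Oaz2*, and *Sat1* and *Odc1* moved above *Azin1* and *Srm*. Per kilobase of the longest transcript the order was again different, with *Sat1* first at 17.5 and *Sms* last at 0.534. *Sms* was last and both oxidases were among the last 4 on all 3 scales.

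**Figure D2:**
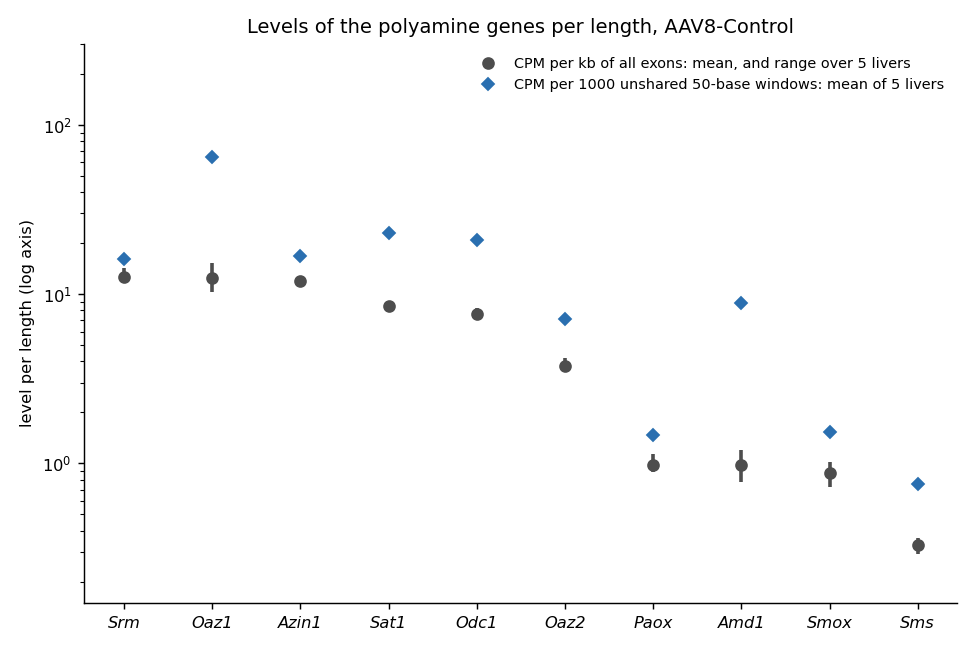
Level per length (log axis) of the 10 polyamine genes in AAV8-Control livers, as CPM per kilobase of all exons (grey points, mean, with the range over 5 livers as a line) and as CPM per 1000 unshared 50-base windows of the longest coding transcript (blue diamonds, mean of 5 livers). *Sms* is lowest on both scales (0.330 and 0.759), and the scales lie furthest apart for *Amd1* (0.978 and 8.88) and *Oaz1* (12.4 and 64.9).

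The 10 genes differed in how much they varied between livers, and this was set beside the variation that counting alone gives at each gene's mean number of reads. *Sat1* had a coefficient of variation of 4.83% where counting gives 4.13%, *Oaz2* 6.53% where counting gives 5.99%, and *Paox* 10.2% where counting gives 9.08%, so on CPM their spread was about that of counting. *Sms*, at 7.70%, was below the 14.2% that counting gives. *Smox* (13.1% beside 10.8%), *Odc1* (5.77% beside 3.92%), *Azin1* (3.48% beside 2.31%) and *Srm* (7.58% beside 4.49%) were above it, *Smox* by little. Without replicate 4 *Smox* was at 9.01%, below the 10.7% that counting then gives. *Odc1* was at 4.18% beside 3.87% without replicate 5, and *Azin1* at 2.56% beside 2.47% without replicate 3, both near counting.

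*Oaz1* varied by 14.4% where counting gives 3.60%, and it was the only one of the 10 above 2 times the counting variation, joined by *Amd1* when replicate 2 was left out. Without replicate 1 the variation of *Oaz1* was 8.70%, still above 2 times the counting value. Leaving out that liver also took *Srm* to 3.74%, *Oaz2* to 2.99% and *Sms* to 4.06%, each below counting, and leaving out replicate 3 took *Paox* to 6.23%. *Amd1* had the largest coefficient of variation, 18.9%, but counting alone gives 10.8% at its few reads. Replicate 1 was 22.3% above the mean for *Oaz1*, 12.3% above it for *Srm* and 10.8% above it for *Oaz2*, and 18.6% below it for *Amd1*. With size factors in place of library totals, a scaling chosen after seeing the data in which the factor of replicate 1 relative to its total was 1.05 times the mean, the coefficient of variation was lower for 4 genes, at 11.4% for *Oaz1*, 4.96% for *Srm*, 3.74% for *Oaz2* and 12.4% for *Smox*. It was higher for the other 6, at 7.04% for *Sat1*, 6.88% for *Odc1*, 5.03% for *Azin1*, 10.02% for *Sms*, 20.9% for *Amd1* and, by little, 10.2% for *Paox*. *Azin1* then also passed 2 times the counting variation, and *Sat1* was no longer close to its counting value of 4.13%.

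**Figure D3:**
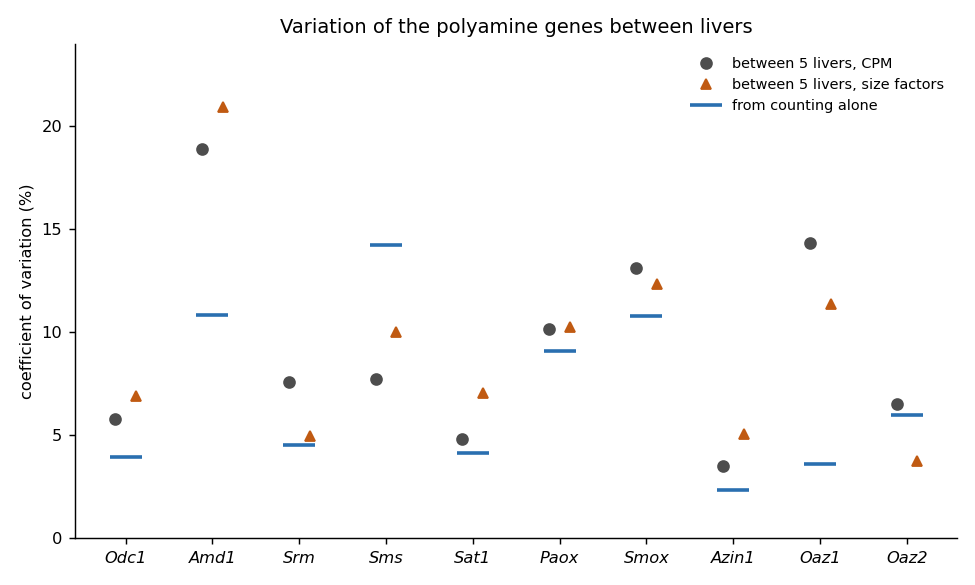
Coefficient of variation (percent, from 0) of the 10 polyamine genes between the 5 AAV8-Control livers, on CPM (grey circles) and with size factors (orange triangles), beside the variation that counting alone gives (blue bars). *Oaz1* lies furthest above its bar (14.4% beside 3.60%), and *Sms* lies below its own (7.70% beside 14.2%).

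The balance between opposed or successive steps was described as ratios of CPM within each liver, which do not depend on the scaling of the libraries. *Odc1* over *Oaz1*, the enzyme against its antizyme, was 0.638, 0.785, 0.906, 0.957 and 0.903 in replicates 1 to 5. Replicate 1 had the lowest balance and replicate 4 the highest, and the ratio varied by 15.3% where counting gives 5.32%. Without replicate 1 it varied by 8.20%. *Sat1* over *Odc1*, the key enzyme of breakdown against that of synthesis, was 0.894, 0.998, 0.884, 0.933 and 0.822. Replicate 2 was the highest and replicate 5 the lowest, and the variation was 7.17% beside 5.69% from counting.

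*Srm* over *Sms*, the first against the second aminopropyl transfer, was 13.0, 8.71, 9.44, 9.80 and 10.4 in replicates 1 to 5. Replicate 1 was the highest, and the variation of 16.0%, near the 14.9% of counting, fell to 7.23% without that liver. *Smox* over *Paox*, the spermine oxidase against the oxidase of acetylated polyamines, was 0.742, 0.725, 0.707, 0.636 and 0.748, a mean of 0.712 ± 0.0450 (SD, n = 5). The variation of 6.32% was below the 14.1% that counting gives, so differences between livers in this ratio could not be resolved at this depth. These ratios are of CPM and not of levels per length, so they compare livers and not the genes of a pair.

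**Figure D4:**
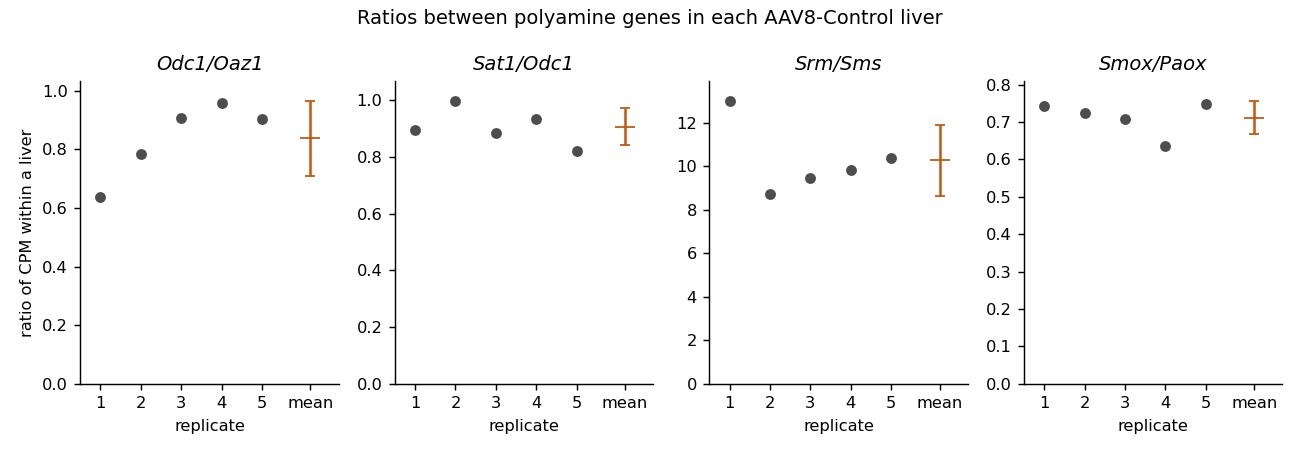
Ratio of CPM between pairs of polyamine genes within each AAV8-Control liver (vertical axes, from 0), replicates 1 to 5 as grey points, with the mean and SD in orange. Replicate 1 is lowest for *Odc1*/*Oaz1* (0.638) and highest for *Srm*/*Sms* (13.0).

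Genes around the pathway were taken as 7 lists with 43 genes. Per kilobase of exons, 30 of the 43 were at 1 CPM or more, beside 6 of the 10 polyamine genes, and the median was 6.68 beside 5.73. These counts depended on the length used. Per kilobase of the longest transcript, *Amd1*, *Paox* and *Smox* also passed 1 CPM, and of the 10 only *Sms* (0.534) stayed below. Of the 43, *Myc*, *Slc18b1* and *Cav1* also passed it on that length. The list around ornithine held 5 genes: those that carry or use it, and *Agmat*, whose enzyme makes putrescine from agmatine. Of these, 4 were above all 10 polyamine genes per kilobase, and *Slc25a2*, at 0.0409, was below them. *Otc* of the urea cycle, which uses ornithine, had 108 ± 18.6 CPM per kilobase (SD, n = 5), and *Oat*, the mitochondrial aminotransferase that sends ornithine towards glutamate, 777 ± 133. *Odc1*, which competes with the last of these for ornithine, had 7.68 ± 0.443 on the same scale. *Oat* ran from 1393 to 2170 CPM over the livers.

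In the methyl donor list *Mat1a*, the methionine adenosyltransferase of adult liver that makes S-adenosylmethionine, was at 5390, 4646, 4615, 5753 and 5168 CPM in replicates 1 to 5. Its level per kilobase was 1475 ± 141 (SD, n = 5), the highest mean of the 43 genes. Its range over livers (1331 to 1659) overlapped with that of *Cat* (1318 to 1547). *Mat2a*, the enzyme form of other tissues, had 15.4 ± 1.65 and *Mat2b*, the regulatory subunit of that form, 5.48 ± 0.341 on the same scale. The 5 genes that recycle methylthioadenosine, the by-product of both synthases, lay between 2.04 for *Enoph1* and 83.7 for *Adi1*.

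*Eif5a*, whose protein carries hypusine made from spermidine, had 109 ± 9.01 CPM per kilobase (SD, n = 5), and its paralog *Eif5a2* 0.0440 ± 0.0287. *Dhps* and *Dohh*, the enzymes that make hypusine, had 4.01 ± 0.612 and 8.66 ± 1.01. Nearly all of the mRNA of *Eif5a* and *Eif5a2* together was thus that of *Eif5a*. Without replicate 1 the variation of *Eif5a* went from 8.30% to 3.75% and that of *Dohh* from 11.6% to 6.39%.

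Of the 11 genes listed for transport, 7 were at 1 CPM per kilobase of exons or more, and *Slc12a8* was lowest, at 0.0544 ± 0.0225 (SD, n = 5). *Slc7a2*, a transporter of arginine and other cationic amino acids, had 44.6 ± 10.7 CPM per kilobase and ran from 260 CPM in replicate 3 to 500.2 CPM in replicate 4. Its variation was 24.02%, and 13.9% without replicate 3. Its relative *Slc7a1* had 0.106 ± 0.0402. *Slc3a2*, the heavy chain shared by several amino acid transporters, was at 43.3 to 45.3 CPM in all livers, a variation of 1.70%, below the 3.02% that counting gives, and 0.891% without replicate 1. *Slc18b1*, a vesicular polyamine transporter gene, had 0.885 ± 0.130 per kilobase.

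In terminal breakdown *Aoc1*, the diamine oxidase that degrades putrescine, held 2 to 8 reads per library, while the aldehyde dehydrogenases and catalase were abundant, with *Cat* at 1401 ± 86.03 CPM per kilobase (SD, n = 5), a variation of 6.14% that was 2.41% without replicate 5. Of the regulators, *Myc*, a known activator of *Odc1*, was at 1.49 to 3.41 CPM, a range of 2.29 times, and *Mycn* held 4 to 9 reads per library. The variation of *Myc* was 29.4% where counting gives 12.3%, and 18.3% without replicate 1, its lowest liver.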

How the data were processed

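Liver poly-A RNA of 5 AAV8-Control mice was sequenced as single reads of 50 bases. The authors aligned reads with STAR 2.0.4b to GRCm38.p2 and counted uniquely aligned, unambiguous reads on genes with featureCounts 1.4.5, per the paper's methods and the submitters' processing notes. The deposited values are CPM, scaled to all reads counted on genes, a step the methods do not describe, and list protein-coding genes only. All values (100%) were whole numbers of reads within 0.01 after division by the CPM of 1 read. *Sms* was listed on 2 lines with the same values and was used once.

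Groups were taken from the sample titles. The other group of the series, and every comparison with it, is not reported here, so no test was run and the values are descriptions. Means, SDs and ratios within a liver were computed in Python 3.11.15 with pandas 2.3.3 and numpy 2.4.6. Gene positions, lengths and sequences came from GENCODE M21 (GRCm38). Counting variation was taken as the inverse square root of the mean number of reads and covers counting error only. Median-of-ratios size factors, each liver left out and other gene lengths were tried as alternatives.

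The polyamine genes and the lists were chosen with earlier results of these data known. The text names all 10 polyamine genes and, by role, *Amd2*, *Sat2*, *Aoc1*, *Eif5a*, *Mat1a* and *Oat*. Other genes of the lists were named after their values were seen. *Satl1* and *Ly6g* of the lists, like 3 acinar markers, were not analysed here.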

Additional observations from a re-analysis of the deposited data

Results flagged for a closer look

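No single liver stood apart from the other 4 in any of the 18 sets of values examined, which were the CPM of the 10 polyamine genes and of *Sat2*, *Eif5a*, *Mat1a* and *Oat* and the 4 ratios. A liver would have been named where its gap to the nearest other liver exceeded 0.71 of the range of the 5 livers, a limit that chance passes in about 1 in 20 such sets. Other genes of the lists were not examined by this rule. Among those, *Gpc1* was at 8.20 CPM in replicate 4 and at 11.9 to 12.6 CPM in the other livers.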

How the results depend on the processing

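The order of levels per length depended on the length used. The rank of 6 polyamine genes changed with the length of the longest transcript and that of 9 with unshared windows. Leaving out 1 liver changed the rank of 0 to 4 genes: 4 without AAV8-Control replicate 1 or replicate 4, and 2 without replicate 3. The number of polyamine genes whose variation was over 2 times that of counting was 1 on CPM and 2 with size factors, and it lay between 1 and 2 when a liver was left out, with 2 (*Oaz1* and *Amd1*) without AAV8-Control replicate 2. Replicate 1 moved the variation of *Oaz1*, *Srm*, *Oaz2*, *Sms*, *Odc1*/*Oaz1* and *Srm*/*Sms* by over 1.5 times, replicate 3 that of *Paox*, and replicate 4 that of *Smox*/*Paox*, from 6.32% to 2.50%. Leaving out 1 liver moved the variation of 22 of 42 genes of the surrounding lists by over 1.5 times. Among them are *Sat2*, *Myc*, *Eif5a*, *Dohh*, *Slc3a2*, *Slc7a2* and *Cat*, given above with their values. The largest moves were those of *Gpc1* (16.0% to 2.83%) and *Psmd4* (7.01% to 2.16%) without replicate 4 and of *Max* (7.04% to 1.82%) without replicate 1. Smaller moves include *Mat2b* (6.22% to 3.71% without replicate 1) and *Slc12a8* (41.3% to 24.1% without replicate 5), the latter at 2 to 10 reads. The cause of these changes was not tested. All but the longest transcript were chosen after seeing the data. Other normalizations, filters and models concern tests between groups and were not run. No paired analysis was possible because no comparison between groups is reported. Depth limits *Sms*, *Amd1* and *Smox* most, with at most 72, 117 and 140 reads in a library.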
